A study of Danio rerio with 5 samples.

Results

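A set of 8 genes that are used as markers of nerve cells were followed through 5 RNA-seq libraries of zebrafish skin cells obtained by fluorescence-activated sorting: elavl3, elavl4, gng3, stmn1b, snap25a, snap25b, sncb and neurod1. All 8 were present in the count table, which named 30837 genes in 75805 transcript rows, and the 8 genes held 23 of those rows. The genes were taken by name. For each symbol the transcript row was chosen by its mean raw count over all 5 libraries, without regard to group. The symbols had been listed with earlier results of these libraries in view, so the tests below describe these genes and are no independent evidence about nerve cells.

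The study sorted embryonic periderm cells (2 libraries), embryonic basal precursors (2 libraries) and adult basal cells (1 library) to ask whether basal precursors have a basal identity by 1 day post fertilization. Periderm covers the embryo as its outermost skin layer, and basal cells rest on the basement membrane. The periderm libraries came from krt4+ cells at 1 day post fertilization from fish carrying krt4:creERt2, together with Olactb:loxP-dsRed2-loxP-egfp and with cryaa:egfp, the last named after a lens crystallin gene. The labels give neither a Cre-inducing treatment nor the fluorescent protein used for that gate. The basal precursors at the same age and the adult cells, which came from the caudal fin, were itgb4+ cells of the Tg(itgb4:mcherry) line, and "basal" below means the embryonic precursors unless adult is said. The wild-type strain of the study derived from Tubingen fish and was kept by inbreeding. The labels do not say whether replicates were separate clutches, so the p-values rest on a spread between libraries that may be technical.

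Neurons are not part of the epidermis, but at 1 day of development the axons of trigeminal and Rohon-Beard sensory neurons grow through the embryonic skin, and their cell bodies lie in the head ganglia and the spinal cord. elavl3 and elavl4 encode Hu-type RNA-binding proteins, and elavl3 is a widely used early marker of postmitotic neurons in zebrafish. stmn1b belongs to the stathmins, which regulate microtubules, and gng3 encodes a gamma subunit of heterotrimeric G proteins that is abundant in neurons. snap25a and snap25b encode SNARE proteins of synaptic vesicle fusion, and sncb encodes beta-synuclein, a presynaptic protein. neurod1 encodes a basic helix-loop-helix transcription factor of neuronal differentiation that is also used in endocrine cells.

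With 1 transcript row kept per gene, the libraries held between 3521588 counts (adult) and 7504139 counts (periderm replicate 2). Levels are counts scaled to library size by the trimmed mean of M-values (TMM-scaled CPM). A count of 3 corresponded to 0.338 to 0.566 CPM in embryonic samples and to 1.37 CPM in the adult sample. Such floors and intervals cover counting error only. Of 16 periderm markers, 14 (among them tgm1, agr1, icn2 and evplb) were lower in basal precursors by edgeR's quasi-likelihood test. Over all 15585 genes tested, 2.53% were called lower and 0.95% higher. The periderm list holds krt4, the gene of the periderm sort. Of 11 basal markers 1 was called higher, itgb4, the gene of the sort itself. At an unadjusted p under 0.05 by edgeR, 5 of these 11 were higher and 0 lower. Their median log2 fold change was 1.41, against -0.02 over all genes tested. No share over all genes was counted at the unadjusted cutoff. The basal list summed to 2696 and 1109 CPM in periderm and 3433 and 1931 CPM in basal precursors, so these sums overlap. The periderm list summed to 81036 and 44144 CPM in periderm and still to 25901 and 19134 CPM in basal precursors.

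Of the 8 genes, 7 had their highest levels in the periderm libraries, lower levels in the basal precursors and few or no counts in the adult fin, while neurod1 was highest in the basal precursors. In bulk samples, fewer cells of a type and less RNA per cell cannot be told apart. Together the 8 genes took 0.120% of gene counts in periderm replicate 1 (95% Wilson interval 0.117% to 0.123%) and 0.0743% in periderm replicate 2 (0.0724% to 0.0763%). Their share was 0.0198% in basal replicate 1 (0.0187% to 0.0210%) and 0.0309% in basal replicate 2 (0.0294% to 0.0325%). The adult library held 14 counts of these genes in all, a share of 3.98e-04% (2.37e-04% to 6.67e-04%).

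**Figure D1:**
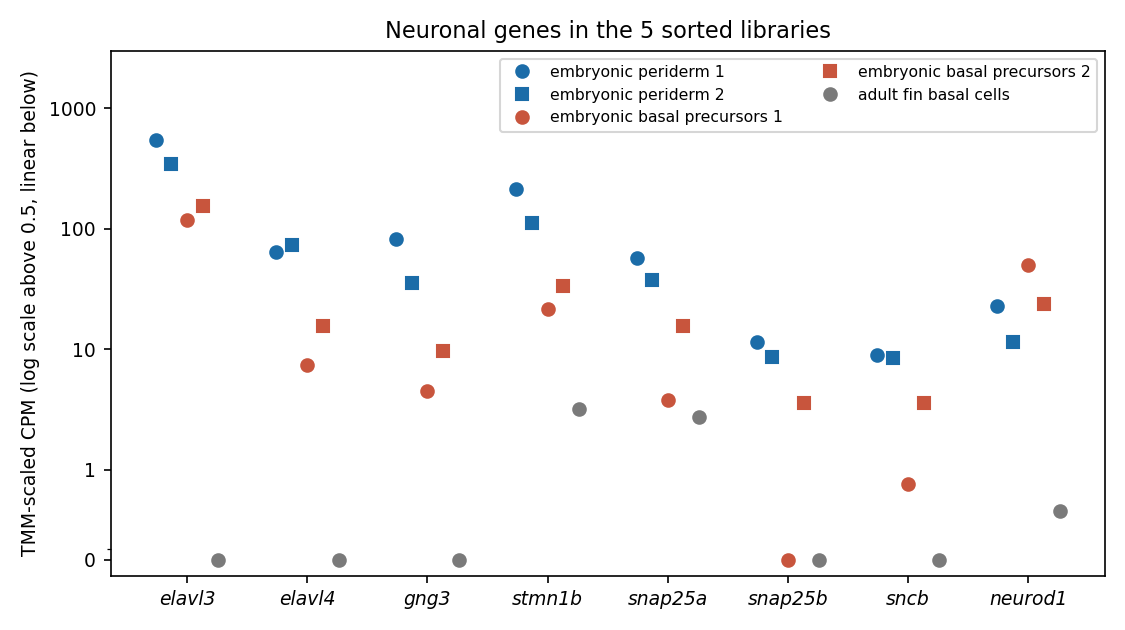
Level of each gene in TMM-scaled CPM (vertical axis, logarithmic above 0.5 and linear down to 0) in the 5 libraries, 1 point per library. For 7 genes both periderm points lie above both basal points, for neurod1 both basal points lie above both periderm points, and 5 genes are at 0 in the adult library.

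Among the RNA-binding proteins, elavl3 measured 549 and 342 CPM in periderm replicates 1 and 2, 119 and 154 CPM in basal replicates 1 and 2, and 0 in the adult library. Every embryonic library therefore held elavl3 well above the floor, with 630 counts in the lowest, and the 2 groups did not overlap. The group means were 445 ± 146 CPM (periderm) against 136 ± 24.8 CPM (basal; SD, n = 2 each), a 3.30-fold lower level that missed the threshold (log2 fold change -1.72, SE 0.38, adjusted p = 0.0566, edgeR). elavl4 measured 63.6 and 72.7 CPM in periderm, 7.36 and 15.7 CPM in the basal sort and 0 in the adult library. It was lower in basal precursors, 5.97-fold (log2 fold change of -2.58 with SE 0.47, adjusted p = 0.0351, edgeR), from 68.2 ± 6.41 to 11.5 ± 5.92 CPM (SD, n = 2 each). Of its 8 transcript rows, 5 tied for the highest summed count of 1127, and the shortest of these was used.

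elavl3 also had 8 transcript rows, which differed in how many reads they took. The shortest row, of 1120 bases, held 34.9% and 35.8% of the count of the longest row, of 6042 bases, in the periderm libraries and 33.0% and 34.7% in the basal libraries. The relation between the rows was thus close to the same in all 4 embryonic libraries.

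stmn1b measured 213 and 111 CPM in the periderm libraries, 21.5 and 33.3 CPM in the basal libraries and 3.21 CPM in the adult library. This was the gene with the most adult counts, 7 in all. It was lower in basal precursors, 5.97-fold (log2 fold change -2.58, SE 0.45, adjusted p = 0.0326, edgeR), from 162 ± 71.8 to 27.4 ± 8.37 CPM (SD, n = 2 each). gng3 measured 82.4 and 35.2 CPM in periderm, 4.53 and 9.75 CPM in the basal sort and 0 in the adult library. It was 8.25-fold lower in the basal sort (log2 fold change of -3.04 with SE 0.59, adjusted p = 0.0409, edgeR), from 58.8 ± 33.3 to 7.14 ± 3.69 CPM (SD, n = 2 each). The log2 fold change of gng3 was -2.30 without periderm replicate 1 and -3.69 without basal replicate 2, and that of elavl4 was -3.22 without basal replicate 2.

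For the genes of the synapse the basal libraries differed more, and none passed the test. snap25a measured 57.1 and 37.8 CPM in periderm, 3.77 and 15.6 CPM in the basal sort and 2.75 CPM in the adult library, which held 6 counts. Its log2 fold change of -2.30 (SE 0.65, adjusted p = 0.103, edgeR) did not pass. Its paralog snap25b, which may share reads with it, measured 11.5 and 8.67 CPM in periderm, 0 and 3.59 CPM in the basal sort and 0 in the adult library (log2 fold change -2.45, SE 1.01, adjusted p = 0.253). Basal replicate 1 held no snap25b count, which allows up to 0.566 CPM. sncb measured 8.91 and 8.44 CPM in periderm, 0.755 and 3.59 CPM in the basal sort and 0 in the adult library (log2 fold change -1.98, SE 0.76, adjusted p = 0.213, edgeR). For all 3 genes, the lowest periderm library lay above the highest basal library, but the basal means rested on 20 and 91 counts for snap25a, 0 and 21 for snap25b, and 4 and 21 for sncb.

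neurod1, the transcription factor, ran the other way. It measured 49.8 and 23.8 CPM in basal replicates 1 and 2 against 22.7 and 11.6 CPM in periderm replicates 1 and 2, and 0.458 CPM, a single count, in the adult library. The lowest basal library lay only just above the highest periderm library. The means were 36.8 ± 18.4 and 17.2 ± 7.87 CPM (SD, n = 2 each), and the test did not call the difference (log2 fold change 1.09, SE 0.53, adjusted p = 0.337, edgeR). Its levels within each group spanned about the size of the difference between them: replicate 1 exceeded replicate 2 by 1.96 times in periderm and by 2.10 times in basal precursors.

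**Figure D2:**
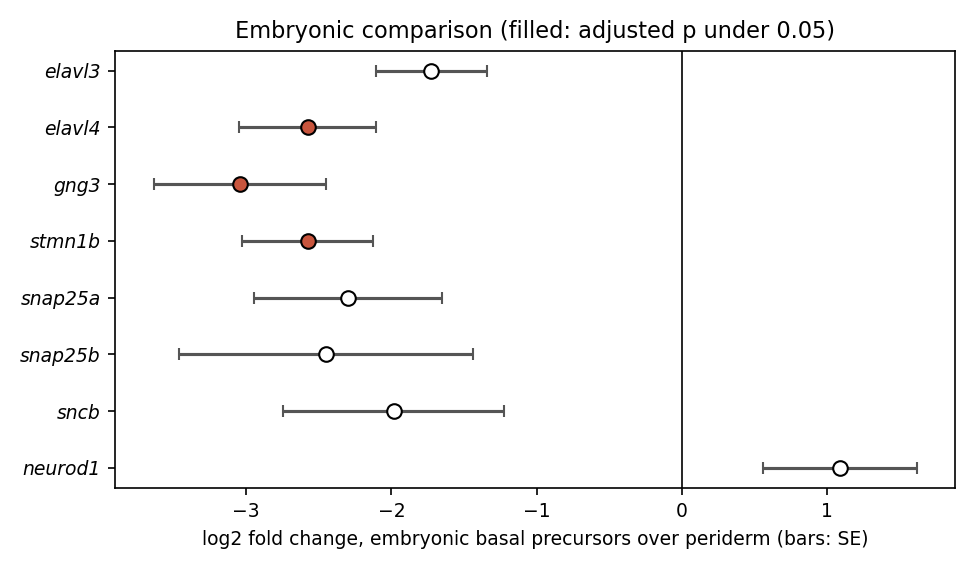
Log2 fold change of each gene, basal precursors over periderm (horizontal axis), with its standard error from edgeR and n = 2 libraries in each group. Filled points, elavl4, gng3 and stmn1b, passed an adjusted p of 0.05, and neurod1 is the gene on the positive side, at 1.09.

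In all, 3 of the 8 genes (elavl4, gng3 and stmn1b) were called lower in basal precursors and none higher, against 2.53% of 15585 genes tested called lower and 0.95% called higher. The median log2 fold change of the 8 genes was -2.37, against -0.02 over all genes tested. All 8 passed the filter on low counts. The libraries of the 2 groups did not overlap for 7 genes in the lower direction and for neurod1 in the higher, and over all genes tested this was so for 24.1% in the lower and 22.8% in the higher direction. The number called was 5 when DESeq2 was used, 1 when the older quasi-likelihood method of edgeR was used and 0 with the transcript rows of each gene summed. The count also depended on which library was left out. No log2 fold change reversed, but with groups that do not overlap, leaving out 1 library could not by itself reverse a sign.

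The deposited RPKM values, which divide by row length, allow the genes to be ordered by level. In periderm replicate 1 the order was stmn1b (88.0 RPKM), elavl3 (62.7), gng3 (50.8), snap25a (17.3), sncb (11.5), elavl4 (8.27), neurod1 (6.97) and snap25b (5.40). In periderm replicate 2 stmn1b (45.8 RPKM) and elavl3 (38.8) again led the order. In the basal libraries neurod1 stood higher in the order, at 12.4 RPKM in replicate 1 (elavl3 11.1 and stmn1b 7.23 RPKM) and at 7.01 RPKM in replicate 2 (elavl3 16.9 and stmn1b 13.3 RPKM). The position of elavl3 depends on the transcript row. Its row of 1120 bases gave 118 RPKM in periderm replicate 1, above stmn1b, and 19.6 RPKM in basal replicate 1, above neurod1.

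The makeup of the neuronal reads was as follows. Within the summed counts of the 8 genes, neurod1 made up 2.25% and 1.85% in the periderm libraries but 24.1% and 9.17% in the basal libraries. Leaving neurod1 aside, elavl3 supplied 55.7% and 55.5% of the counts of the other 7 genes in periderm and 75.8% and 65.4% in basal precursors. gng3 supplied 8.36% and 5.72% in periderm and 2.89% and 4.14% in basal precursors, and stmn1b 21.6% and 18.1% against 13.7% and 14.2%. The elavl4 share, 6.46% and 11.8% in periderm, was 4.69% and 6.68% in basal precursors, so those ranges overlap. The ranges of the 2 sorts also overlap for snap25a, snap25b and sncb. These shares describe the libraries and were not tested.

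**Figure D3:**
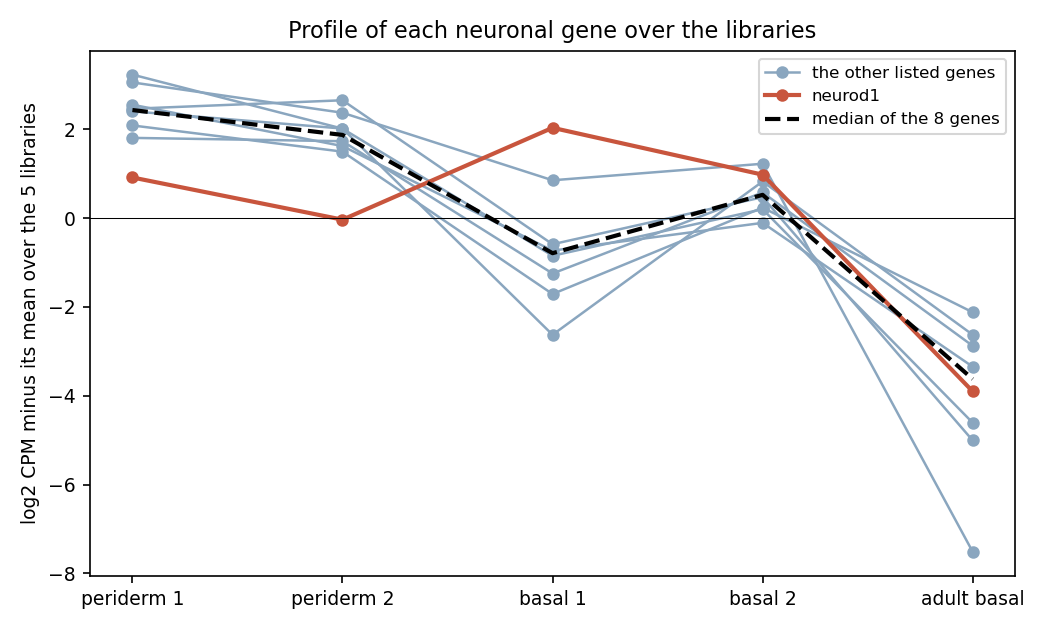
Log2 CPM of each gene minus its own mean over the 5 libraries (vertical axis), with 1 line per gene. The lines join unordered libraries for reading only. The line of neurod1 peaks in basal replicate 1, where the other 7 genes lie below their periderm values.

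Replicates differed within each group, and for most of the 8 genes the direction was opposite in the 2 groups. No count over all genes was set beside these, so the pattern is not shown to be particular to the 8 genes. The sums of the periderm, basal and general neuronal lists were also higher in periderm replicate 1. Those of the muscle, mesenchyme, lens, erythroid and leukocyte lists were higher in periderm replicate 2. The periderm value of sncb below rests on 49 and 75 counts. In periderm, 7 of the 8 genes were higher in replicate 1 than in replicate 2, by between 1.06 times for sncb and 2.34 times for gng3, the exception being elavl4. In basal precursors 7 of the 8 were higher in replicate 2, by between 1.29 times for elavl3 and 4.76 times for sncb, with snap25b at 0 counts in replicate 1, and the exception was neurod1.

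The adult library asked what remained of these transcripts in itgb4+ cells of the fin. elavl3, elavl4, gng3, snap25b and sncb had 0 counts there. Against the floor of 3 counts, the adult level was at least 324-fold lower than in periderm for elavl3, at least 49.6-fold for elavl4 and at least 42.8-fold for gng3. Relative to the basal precursors these bounds were at least 99.2-fold, 8.40-fold and 5.19-fold. For snap25b and sncb the bounds were at least 7.32-fold and 6.31-fold against periderm. Against basal precursors they were at least 1.31-fold and 1.58-fold. neurod1 was 80.3 times as high in basal precursors as its single adult count (95% Poisson interval 14.4 to 3172) and 37.5 times as high in periderm (6.72 to 1480). stmn1b, with 7 adult counts, was 50.6 times as high in periderm (24.6 to 126) and 8.55 times as high in basal precursors (4.15 to 21.3). snap25a, with 6, was 17.3 times as high in periderm (7.93 to 47.0) and 3.52 times as high in basal precursors (1.62 to 9.59).

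The adult group is 1 library, so the fit of all 5 libraries in edgeR holds no adult spread and assumes that the adult sample varies like the embryonic ones. Genes at 0 counts in the adult entered that fit through the embryonic groups where they are high, so their calls add nothing to the bounds above. In this fit 6 of the 8 genes were called lower in the adult than in periderm, against 14.4% of 18144 genes. The 2 that missed were sncb (adjusted p = 0.0551) and snap25b (adjusted p = 0.0951). Against the basal precursors, elavl3, elavl4, stmn1b and neurod1 were called lower (adjusted p = 0.00185, 0.0179, 0.0286 and 0.0128), 4 of 8 against 11.4% of genes, and gng3 missed (adjusted p = 0.0542). Both comparisons use the same adult library, and age and body site cannot be told apart there. The median log2 change of all genes was -0.72 against periderm with TMM and -1.66 with total counts alone. All 8 genes had negative log2 fold changes against both embryonic groups under either scaling. For the 5 genes at 0 adult counts no scaling could have given another sign, and the others held 7 adult counts or fewer.

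A further 9 lists of genes of the nervous system were read in the same embryonic fit. Of 344 listed genes in the table, none of them among the 8, 236 were tested. Of these, 24 were lower and 1 was higher in basal precursors, against 2.53% and 0.95% of all genes tested, and their median log2 fold change was -1.90. At an unadjusted p under 0.05, 136 were lower and 9 higher. No share over all genes was counted at this unadjusted cutoff. The unadjusted counts here and below therefore have no background, and the shares of 2.53% and 0.95% do not apply to them.

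Among general neuronal genes, 9 of 53 tested were lower and none higher (median -2.06; 40 lower and 1 higher at an unadjusted p under 0.05). inab, a neuronal intermediate filament gene, was lower by a log2 fold change of -3.92 (SE 0.73, adjusted p = 0.0364, edgeR), and atp1a3a, an alpha subunit gene of the sodium pump, was 10.8-fold lower (adjusted p = 0.0107). The stathmin genes stmn2a and stmn2b fell 6.73-fold and 6.11-fold (adjusted p = 0.0344 and 0.0424), against 5.97-fold for stmn1b. Of the synapse and transmitter genes, 6 of 43 were lower and none higher (median -2.45; 30 lower and 0 higher at an unadjusted p under 0.05). They included gad1b, which makes the inhibitory transmitter GABA (13.5 and 7.20 CPM in periderm, 0 and 0.342 CPM in the basal sort, adjusted p = 0.0297). They also included cplx2l, a complexin gene of vesicle release (18.5-fold lower, adjusted p = 0.0113), sncgb, a synuclein gene (16.4-fold, adjusted p = 0.0403), and nsfa, whose product takes SNARE complexes apart (8.47-fold, adjusted p = 0.0491). In the axon and sodium channel list 1 of 23 genes was lower, kif5aa, a kinesin motor of axonal transport (8.76-fold, adjusted p = 0.0311), and the list's median was -1.75 (12 lower and 1 higher at an unadjusted p under 0.05). A single call among 23 genes is near the share of 2.53% over all genes. Genes near 0 counts in both basal libraries, such as gad1b (0 and 2 counts), passed the filter on low counts through periderm alone. Such genes could be called lower but not higher, and they also enter the list medians. In the synapse list, sypa and slc17a6a were at 0 in both basal libraries. The same limit holds for such genes in the lists below.

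Among genes of skin-innervating sensory neurons, 1 of 20 tested was lower, none was higher (4 lower and 1 higher at an unadjusted p under 0.05), and the median was -0.06. This single call is likewise near the share over all genes. The gene called was tac1, a neuropeptide precursor gene (24.5 and 11.4 CPM in periderm, 0.566 and 1.71 CPM in the basal sort, adjusted p = 0.0398, edgeR). The values of isl1, a LIM homeobox gene of sensory and motor neurons, were 19.3 and 8.33 CPM in periderm against 17.5 and 11.8 CPM in basal precursors (a log2 fold change of 0.08, SE 0.55, adjusted p = 0.973). fgf13a, a member of the fibroblast growth factor family, averaged 26.4 ± 9.01 CPM in periderm and 26.7 ± 8.93 CPM in the basal sort (SD, n = 2 each), a log2 fold change of -0.01 (SE 0.46, adjusted p = 0.996). isl1 and fgf13a fall outside the rule for named genes and were picked after their values were seen. The difference between this list and the others was not tested.

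**Figure D4:**
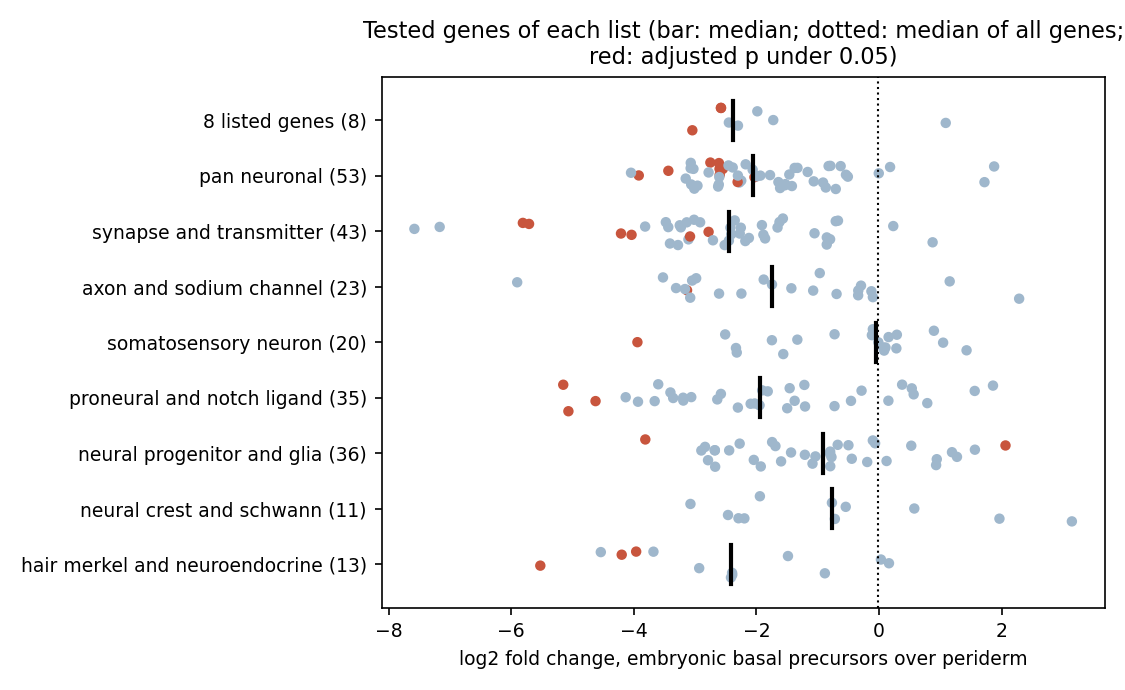
Log2 fold change, basal precursors over periderm (horizontal axis), of each tested gene of the 8 listed genes and of 8 of the 9 lists (number tested in parentheses). Black bars are list medians, the dotted line is the median of all genes and red points passed an adjusted p of 0.05. The median of the somatosensory list, -0.06, lies at that of all genes, and those of the general neuronal and synapse lists lie at -2.06 and -2.45.

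The sums of the proneural and Notch ligand list overlapped, at 2065.5 and 1245.1 CPM in periderm and 1677.4 and 1140.3 CPM in basal precursors. In the adult library this list summed to 4333 CPM, with 27 of its 45 genes at 0. That sum therefore came from part of the list, and the genes that carried it are not given here. Of its 35 tested genes, 3 were lower and none higher (median -1.95, with 23 lower and 1 higher at an unadjusted p under 0.05). Among them was nkx2.2a, a homeobox gene of ventral neural progenitors (16.7 and 3.94 CPM in periderm, 0.189 and 0.342 CPM in the basal sort, adjusted p = 0.0417, edgeR). Like gad1b, it passed the filter through periderm alone. Another was phox2bb, a homeobox gene of autonomic and hindbrain neurons (24.7-fold lower, adjusted p = 0.0287). Of 36 neural progenitor and glia genes, 1 was lower and 1 higher, near the shares over all genes (median -0.92). At an unadjusted p under 0.05, 15 of them were lower and 3 higher. The whole list summed to 4056 and 2513 CPM in periderm against 4062 and 3526 CPM in basal precursors, so these sums overlap. sox1b, a neural progenitor factor, was 14.0-fold lower (adjusted p = 0.0422, edgeR), and glula, a glutamine synthetase gene that is not limited to glia, was 4.18-fold higher (adjusted p = 0.0290). Of 13 hair cell, Merkel cell and neuroendocrine genes, 3 were lower (median -2.41, with 8 lower and 0 higher at an unadjusted p under 0.05). pcsk1nl and scg2b, of the secretory granule, fell 18.3-fold and 15.6-fold (adjusted p = 0.0484 and 0.0335). None of 11 neural crest and Schwann cell genes was called by edgeR (median -0.77; 4 lower and 2 higher at an unadjusted p under 0.05). The most abundant of these, snai2, measured 47.6 and 85.2 CPM in periderm against 335 and 194 CPM in basal precursors (adjusted p = 0.0605), and nr2f1a measured 84.4 and 50.6 CPM against 40.0 and 40.2 CPM (adjusted p = 0.357). Of the photoreceptor list 2 genes were tested and none was called, also at an unadjusted p under 0.05, with thrb, a thyroid hormone receptor gene, at 3.27 and 1.58 CPM against 7.55 and 6.16 CPM. The rod transducin gene gnat1, which was not tested, measured 4.55 and 0 CPM against 1.70 and 0.171 CPM.

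With DESeq2, 85 of these 236 other genes were lower and 4 higher, while its calls over all 15585 genes also grew, to 838 lower and 557 higher from 395 and 148. The count of calls fell from 25 to 11 with the older edgeR method, to 3 with transcript rows summed, to 0 without periderm replicate 1 and to 2 without basal replicate 1. It was 18 without periderm replicate 2 and 51 without basal replicate 2.

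Some of the listed genes were abundant in the adult library. There the general neuronal list summed to 2943 CPM although 37 of its 60 genes were at 0. uchl1, a ubiquitin hydrolase gene, measured 1811 CPM, tubb2b, a tubulin gene, 590 CPM and olfm1b, an olfactomedin gene, 260 CPM. The 8 followed genes summed to 6.41 CPM in the same library. These 3 genes were named after their values were seen.

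The lens, erythroid, pigment cell and leukocyte lists, like the 8 genes in sum, were lower in the basal libraries than in periderm. Within periderm the sums of the 8 genes and of the pigment cell list were higher in replicate 1. Those of the lens, erythroid and leukocyte lists were higher in replicate 2. Within basal precursors the 8 genes and the lens, erythroid and pigment cell lists summed higher in replicate 2, and the leukocyte list in replicate 1. The lens list summed to 191 and 390 CPM in periderm replicates 1 and 2 and to 7.55 and 22.4 CPM in the basal libraries, and 3 of 9 tested genes (cryba4, crybb1 and cryba2a) were lower in basal precursors. Its genes cryaa and bfsp2 were at 0 in both basal libraries. The erythroid list summed to 658 and 1030 CPM in periderm against 26.4 and 94.1 CPM in basal precursors (5 of 7 tested genes lower, among them alas2, slc4a1a, hbbe1.1 and hbae3), with alas2 at 0 in both basal libraries. The pigment cell list summed to 1337 and 969 CPM against 66.0 and 172 CPM (6 of 15 lower, among them mitfa, aox5, gch2 and pmela), with ltk and csf1ra at 0 in both basal libraries. The leukocyte list summed to 155 and 245 CPM against 43.8 and 20.7 CPM (4 of 10 lower, among them mfap4, lcp1 and coro1a), with mpx, ptprc and mpeg1.1 at 0 in both basal libraries, and it shares runx1 with the somatosensory list. Muscle genes, of which actc1b and atp2a1 were the most abundant, were split by replicate number instead, at 23488 and 58339 CPM in periderm against 24910 and 49761 CPM in basal precursors, and none of 24 was called or had an unadjusted p under 0.05. The mesenchyme list summed to 2869 and 4229 CPM in periderm against 12713 and 10492 CPM in basal precursors, with 4 of 18 genes (col6a2, col6a1, lum and postnb) higher there. The part of such cells in the values of the 8 genes was not tested.

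**Figure D5:**
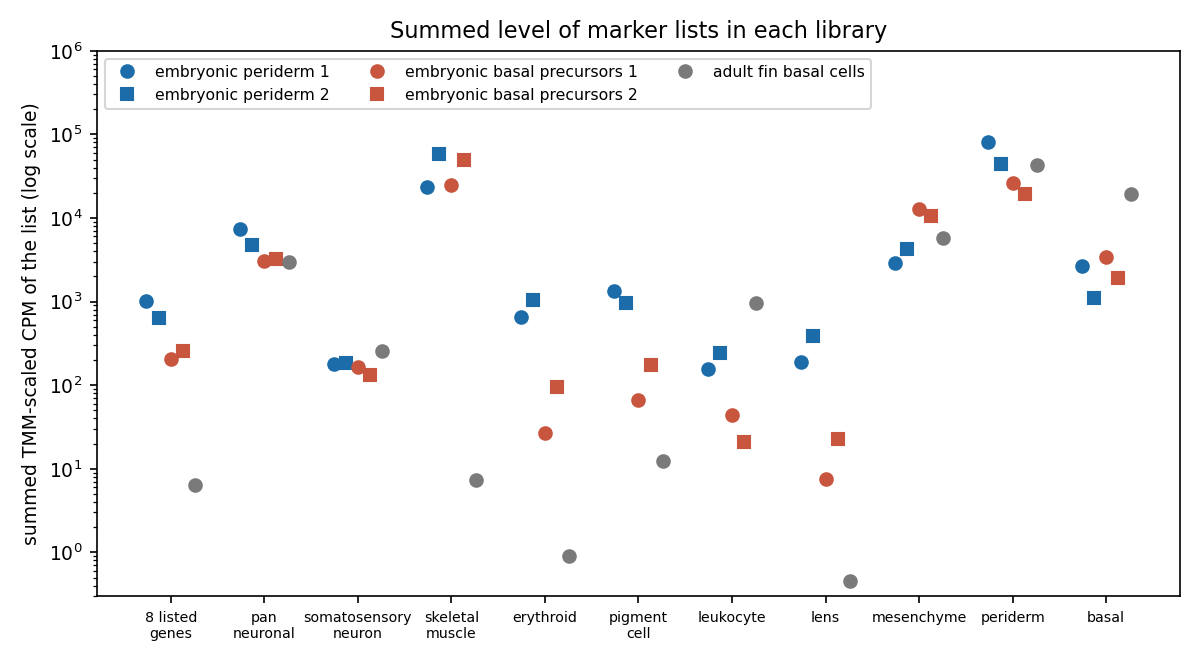
Summed TMM-scaled CPM of the 8 listed genes and of 10 marker lists (logarithmic vertical axis), 1 point per library. The 8 genes, erythroid, pigment cell, leukocyte and lens lists lie higher in both periderm libraries than in both basal libraries, and the muscle list is low in the adult library alone. The somatosensory list lies between 133 and 185 CPM in the embryonic libraries. It lies at 258 CPM in the adult library, although 19 of its 30 genes are at 0 there. Most of that adult sum is 1 gene, runx3, which is also a gene of leukocytes.

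The genes with the most similar profile were sought among 8063 named genes with a mean of at least 10 CPM, by the root mean square difference over the 5 libraries between each gene's centred log2 CPM and the median profile of the 8 genes. The 10 closest were tuba1a (0.11), gfap (0.14), tpm2 (0.14), tuba1c (0.21), msi1 (0.23), podxl (0.24), myt1b (0.25), ncana (0.27), rx1 (0.28) and epha4b (0.29). Those distances are smaller than that of stmn1b, the closest of the 8, at 0.33, and than the 1.69 of neurod1. gfap, podxl, myt1b, ncana, rx1 and epha4b were at 0 in the adult library, so their adult position rests on a floor. The distance of elavl3, 1.95, comes mainly from the adult library. Its 0 counts there lie farther below its high embryonic level than those of the other genes, so this distance also rests on a floor. gfap, a glial filament gene, measured 29.5 and 17.2 CPM in periderm, 2.45 and 7.18 CPM in the basal sort and 0 in the adult library. rx1, a homeobox gene of the retina, measured 31.3 and 23.3 CPM, 2.26 and 5.30 CPM, and 0.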

How the data were processed

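RNA of 5 sorted cell samples was sequenced by the authors, who used the SH800S sorter and the RNeasy Plus Micro Kit, per the labels' protocols. The deposited counts are raw read numbers for each transcript. The submitters' processing notes name the build GRCz11 and the tools featureCounts 2.0.3 and HISAT2 2.2.1; strand use is not given in the sources used here, so antisense reads and paralogs such as snap25a and snap25b may share reads. The deposited RPKM values were divided by row length and library total by the authors, per the file headers, and were used only to order genes by level.

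One transcript per symbol, that of the highest mean count, was kept, the shortest where several tied. Replicates were not duplicates (chi-square per degree of freedom 57.2 in periderm and 63.5 in basal precursors). Tests used edgeR 4.0.16 in R 4.3.3: filterByExpr by group, TMM, estimateDisp, glmQLFit with legacy = FALSE and glmQLFTest, with Benjamini-Hochberg adjustment over all genes tested and a threshold of 0.05. A standard error is the size of the log2 fold change over the square root of F. The embryonic fit used 4 libraries and no block, and the adult fits used 5. Log2 CPM for profiles had a prior count of 2. The members and the gene lists were chosen with earlier results of these data known. By rule, up to 4 called genes per list and direction are named, by fold change and averaging 10 CPM or more in either group. Where none was called, up to 2 are named by mean CPM. Genes of other cell types are named without CPM values. Some, but not all, of those at 0 in both basal libraries are also named, outside this rule. The code was tested on simulated data. No column of another series was present. Alternatives were RLE scaling, total counts, other filters, DESeq2 1.42.0, the older quasi-likelihood fit, transcript rows summed, the replicate block, all 5 libraries, each embryonic library left out and, added after the data were seen, the longest of tied rows.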

Additional observations from a re-analysis of the deposited data

How the results depend on the processing

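No log2 fold change of the 8 genes reversed. That outcome was largely fixed in advance, because the embryonic groups did not overlap and 5 genes had 0 adult counts. With transcript rows summed, the embryonic calls of elavl4, gng3 and stmn1b were lost (adjusted p = 0.0580, 0.0773 and 0.0637, edgeR). With the older fit, elavl4 and gng3 missed (adjusted p = 0.0501 and 0.0563, edgeR). Over all embryonic alternatives the log2 fold change of elavl4 lay between -3.22 and -2.11. That of gng3 lay between -3.69 and -2.30, and that of stmn1b between -2.95 and -2.03. The count of the 8 genes called in the embryonic comparison, 3, was 5 with DESeq2, 1 with the older quasi-likelihood fit and 0 with transcript rows summed, and between 0 and 5 with 1 library left out. For the other neuronal genes the count, 25, was 52 with total counts, 89 with DESeq2, 11 with the older fit and 3 with rows summed, and between 0 and 51 with 1 library left out. Calls in the adult comparisons are not set side by side across alternatives. The adult group is 1 library, and the 5 genes at 0 counts entered those fits through the embryonic groups where they are high. Among genes with adult counts, the log2 fold change of stmn1b lay between -6.58 and -5.11 against periderm and -3.91 and -2.74 against basal precursors. That of snap25a lay between -5.03 and -3.77 and between -2.67 and -0.45. That of neurod1 lay between -6.04 and -4.59 and between -6.95 and -5.67. The labels do not say what a shared replicate number means. Over 15585 genes the replicate deviations of the 2 groups correlated at 0.22. This value rests on 1 replicate difference in each group, so it cannot show whether libraries are paired. Of the 8 genes, 7 were higher in periderm replicate 1 and 7 in basal replicate 2, with no count over all genes beside these. With the replicate block 2 of the 8 genes and 31 other neuronal genes were called, and gng3 missed (adjusted p = 0.0613, against 7.39e-05 to 0.226 over all its alternatives). Fits without 1 embryonic library leave 1 sample in a group, which is assumed to vary like the others. The fit of snap25b in the adult against basal replicate 1 alone, both at 0 counts, gives no value. Over all genes, 543 were called in the embryonic comparison, 1395 with DESeq2, 774 with total counts, 337 with the older fit, 202 with rows summed, and between 73 and 943 with 1 library left out. snap25b and sncb held 21 or fewer counts in each basal library, and the part of depth in their missed calls was not tested.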

Other observations

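The profile of neurod1 was compared with other genes after its values had been seen. By the same distance, the closest of 8063 genes were pcdh10b (0.20), angptl7 (0.21), hspb9 (0.28) and rce1b (0.32). pcdh10b, a protocadherin gene, measured 16.4 and 8.55 CPM in periderm, 38.7 and 23.4 CPM in the basal sort and 0.458 CPM in the adult library. Among the listed genes, six1a, a homeobox gene of cranial placodes, measured 15.6 and 11.6 CPM in periderm against 55.5 and 18.8 CPM in the basal sort (log2 fold change 1.43, SE 0.57, adjusted p = 0.233, edgeR). The zinc finger gene gata3 measured 26.9 and 35.4 CPM in periderm against 115 and 72.7 CPM in the basal sort (log2 fold change 1.56, SE 0.40, adjusted p = 0.0800, edgeR). Neither passed the test, and both fall outside the rule for named genes and were picked after their values were seen. Of the 236 other neuronal genes tested, 38 had positive and 198 negative log2 fold changes.

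A pair of listed genes was uneven between replicates. sst2, a somatostatin gene of endocrine cells, measured 80.5 and 9.79 CPM in periderm replicates 1 and 2, and 3.96 and 0 CPM in the basal libraries. uchl1 measured 139 and 10.4 CPM in basal replicates 1 and 2 and 28.4 and 16.5 CPM in periderm. In the adult library, runx3, a transcription factor of sensory neurons and of leukocytes, measured 220 CPM, against 1.45 to 5.85 CPM in the embryonic libraries, and the leukocyte list summed to 952 CPM there. These genes were picked after their values were seen.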
